A study of Homo sapiens with 4 samples.

Results

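The genes described here are 9 that encode soluble lysosomal enzymes, their cofactors and a protease inhibitor: HEXA, GM2A, NPC2, LIPA, GAA, FUCA2, LGMN, SCPEP1 and CST3. They were taken by gene name from the authors' deposited table, which holds 858 genes, and all 9 names were found in it. Lysosomal hydrolases are made in the endoplasmic reticulum, mostly tagged with mannose 6-phosphate in the Golgi, and delivered to an acidic compartment where they break down glycolipids, glycogen, cholesteryl esters and proteins. Some need a small non-enzymatic partner that lifts a lipid out of the membrane and presents it to the enzyme. In tumour cells with high nutrient demand, pancreatic cancer cells among them, this compartment also recycles material brought in by autophagy and macropinocytosis.

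The study used MiaPaca-2 cells, a long-established line from a human pancreatic cancer, grown in medium with bovine and horse serum. Total RNA was sequenced from 2 samples in which a short hairpin targets PRMT1 (shPRMT1) and from 2 with a non-targeting hairpin (shNTC). PRMT1 is the main enzyme for asymmetric dimethylation of arginine in proteins. The labels give 1 name, shPRMT1, to the hairpin against PRMT1 and mention no rescue. The sample titles do not say whether both shPRMT1 samples carried the same hairpin sequence. The labels give no time after the hairpin was introduced, and they do not say whether the samples of a group were separate cultures. Effects of this hairpin and of less PRMT1 cannot be told apart. The extraction text in the labels speaks of a histone immunoprecipitation beside a total RNA kit, and the samples were read as RNA because molecule and library source are those of RNA.

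The authors' deposited table gives each gene a fold change between the groups, also as log2, with its unadjusted and adjusted p. It holds genes with an unadjusted p under 0.05, the largest being 0.0498. Expression levels per sample were not analysed here. A fold change below therefore carries no replicate error, depth is unknown, and neither the spread within a group nor the order of expression levels among the 9 genes can be given. The cell line's identity could not be checked against marker levels for the same reason. The numerator of the ratio is not named. It was read as shPRMT1 over shNTC because PRMT1 had 0.356 as its ratio in the authors' deposited table (p = 0.0156, adjusted 0.411), and every direction below would turn under the opposite reading.

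In the authors' deposited table, 6 of the 9 genes were lower in shPRMT1 (FUCA2, CST3, HEXA, LIPA, NPC2 and GAA) and 3 were higher (LGMN, GM2A and SCPEP1), GAA being above 0 once 0.1 is added to all log2 values or they are centred on their median. The lower genes digest glycans, glycogen and lipids, carry cholesterol or inhibit proteases, and the higher ones are both proteases of the set and the activator of ganglioside breakdown. The differences ran from a log2 fold change of −0.41 for FUCA2 to 0.44 for SCPEP1 in the authors' deposited table, a span of 0.85, and 6 of the 9 were larger in absolute size than the table's median of 0.28. Among all 858 genes of the authors' deposited table, 58.4% were lower and 41.6% higher, and the median log2 fold change was −0.12 against −0.27 for the 9 genes. The 9 genes were chosen from this same comparison, so these counts describe the choice and are not a test. In bulk RNA, a change in some cells and a change in every cell cannot be told apart.

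None of the 9 genes passed an adjusted p of 0.05 in the authors' deposited table, where their adjusted p ran from 0.308 to 0.432. Over the whole comparison, 0.0131% of the genes tested had an adjusted p under 0.05, and 11.2% had an unadjusted p under 0.05, which is the condition for being in the authors' deposited table at all. At an unadjusted p under 0.01, 2 of the 9 genes remained in the authors' deposited table, NPC2 and LGMN. That stricter level was met by 22.3% of the 858 genes, and by 2.5% of the genes tested. No gene of the 9 had an absolute log2 fold change of 0.5 or more in the authors' deposited table, a size that 23.8% of its genes reached.

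**Figure D1:**
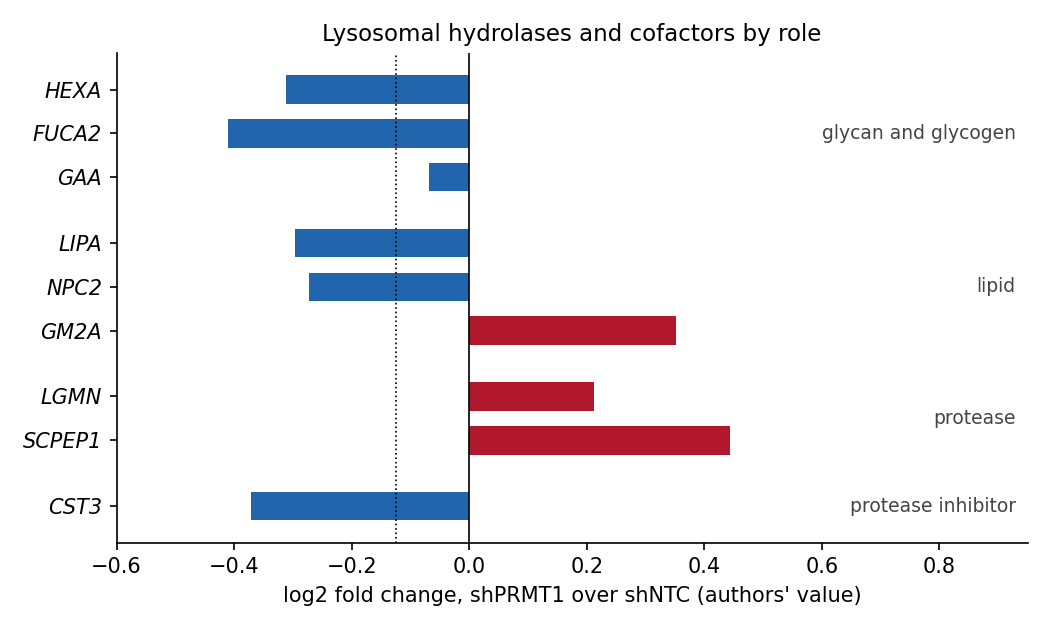
Log2 fold change of the 9 genes, shPRMT1 over shNTC, as given in the authors' deposited table, grouped by role. Bars start at 0, blue is lower and red higher, the dotted line is the median of the table (−0.12), and there are no error bars because the values come from the authors' comparison. The glycosidases, LIPA, NPC2 and CST3 lie on the lower side, and GM2A, LGMN and SCPEP1 on the higher side; GAA lies between 0 and the dotted line.

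The stretches of DNA just before the start sites of 4 of these genes are shown first, because they carry short elements known from lysosomal and housekeeping promoters and belong to genes on both sides of the comparison. Windows of 300 bases, 250 of them before the start site, were found in the RefSeq table (build GRCh38.p14) for 7 of the 9 genes, 10 windows in all because NPC2 and LIPA have several start sites. HEXA and LGMN had none. The transcription factor TFEB and its relatives bind an E-box, CACGTG, in the extended form GTCACGTGAC near many lysosomal genes, and NF-Y binds the CCAAT box. Capitals mark the full element in GAA, the shorter form TCACGTGA in SCPEP1, and CCAAT (or its reverse complement) in GM2A and NPC2. Each line is written 5′ to 3′ on the strand of the gene and ends before the RefSeq start site.
GAA, chr17:80101483-80101557, plus strand: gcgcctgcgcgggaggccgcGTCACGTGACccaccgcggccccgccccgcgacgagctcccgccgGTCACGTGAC
SCPEP1, chr17:56978063-56978125, plus strand: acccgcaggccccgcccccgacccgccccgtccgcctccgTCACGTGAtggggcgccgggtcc
GM2A, chr5:151253003-151253158, plus strand: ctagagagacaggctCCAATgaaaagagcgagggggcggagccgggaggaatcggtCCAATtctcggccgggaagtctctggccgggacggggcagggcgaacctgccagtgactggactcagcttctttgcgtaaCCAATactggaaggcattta
NPC2, chr14:74493602-74493676, minus strand: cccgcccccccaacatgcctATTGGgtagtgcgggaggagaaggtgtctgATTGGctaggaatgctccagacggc

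GAA held 2 copies of GTCACGTGAC, which begin 78 and 33 bases before its start site, and SCPEP1 held 1 copy of TCACGTGA, beginning 28 bases before its start. The other 5 genes with a window held no CACGTG in it. By gene, CACGTG was in 2 of 7, beside 8.77% of all gene symbols with a window. Among soluble lysosomal genes with a window, these 7 included, it was in 17 of 52 (32.7%). Of all 35116 windows in the table, 0.353% held GTCACGTGAC, 0.98% held TCACGTGA and 7.26% held CACGTG; the 3 forms are nested, so a match of the longest is also a match of the others, and each reads the same on both strands. GAA and SCPEP1, which share this element, stood on opposite sides of the comparison in the authors' deposited table, at log2 fold changes of −0.07 and 0.44, GAA being at 0.032 with 0.1 added to every value.

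CCAAT, searched on both strands, was present in 3 of the 7 genes: GM2A with 3 copies, NPC2 with 2 at its upstream start site, and LIPA with 3 and 1 in separate windows. These 3 genes also differed in direction, with GM2A higher and NPC2 and LIPA lower in the authors' deposited table. CCAAT was in 4 of the 10 windows of the 7 genes and in 34.6% of all windows; by gene, it was in 41.0% of the lower and 48.4% of the higher genes listed. The GC box GGGCGG, on either strand, was in all 7 genes, beside 78.0% of the lower and 80.7% of the higher genes listed and 88.5% of the soluble lysosomal genes with a window. TATAAA was in 0 of 7, beside 6.17%, 7.09% and 3.85% in the same sets. By window, GGGCGG was in 9 of 10 and in 45.0% of all windows, and TATAAA in 0 of 10 and in 11.5%. A match describes the letters of the window and does not show that a factor binds there.

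Among the enzymes that cut sugar chains, HEXA encodes the alpha subunit of beta-hexosaminidase A, the enzyme that removes the terminal sugar of GM2 ganglioside and is lost in Tay-Sachs disease. For HEXA (ENSG00000213614.5) the authors' deposited table gave 0.805 as the ratio and −0.31 as the log2 fold change (p = 0.0305).

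FUCA2 (ENSG00000001036.9), a secreted and lysosomal alpha-L-fucosidase that removes fucose from glycoproteins, had the lowest value of the 9, a ratio of 0.752 and a log2 fold change of −0.41 (p = 0.0276) in the authors' deposited table. It ranked 151 from the lowest end of the 858 genes. Acid alpha-glucosidase, encoded by GAA (ENSG00000171298.8), degrades glycogen that reaches the lysosome and is lost in Pompe disease. Its ratio in the authors' deposited table was 0.954, a log2 fold change of −0.07 (p = 0.042), and 3.38% of the genes listed there had a smaller absolute value. GAA is therefore lower by less than the table's median, and the sign of its value rests on the centring of the data.

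Lipid breakdown was represented by 3 genes. LIPA (ENSG00000107798.13), lysosomal acid lipase, frees cholesterol and fatty acids from lipoprotein cholesteryl esters and triglycerides. The authors' deposited table gave it a ratio of 0.814, a log2 fold change of −0.30 (p = 0.0322). NPC2 (ENSG00000119655.4), the soluble carrier that takes the freed cholesterol and hands it to the membrane protein NPC1, had a ratio of 0.828 and a log2 fold change of −0.27 in the authors' deposited table. Its p of 0.00159 was the smallest of the 9 and ranked 37 in the authors' deposited table; after adjustment it was 0.308. The enzyme and the carrier of this step thus stood at nearly the same ratio, while NPC1 itself was not among the listed genes. Both were chosen from this comparison and their ratios carry no error, so this likeness is a description only.

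GM2A (ENSG00000196743.4) encodes the GM2 activator, a lipid-binding protein that lifts GM2 ganglioside from the membrane so that hexosaminidase A can reach it. It stood on the higher side, with a ratio of 1.28 and a log2 fold change of 0.35 (p = 0.0246) in the authors' deposited table. The activator and the subunit it serves therefore pointed in opposite directions, HEXA being 0.66 lower than GM2A on the log2 scale in the authors' deposited table. No error can be attached to that gap here.

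Both proteases of the set were on the higher side. LGMN (ENSG00000100600.10) encodes legumain, a cysteine protease that cuts after asparagine and matures several cathepsins. Its ratio in the authors' deposited table was 1.16, or 0.21 as log2 (p = 0.00303, adjusted p = 0.364). SCPEP1 (ENSG00000121064.8), a serine carboxypeptidase-like protein, had the highest value of the 9, a ratio of 1.36 and a log2 fold change of 0.44 (p = 0.0271) in the authors' deposited table. It ranked 112 from the highest end of the 858 genes.

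CST3 (ENSG00000101439.4) encodes cystatin C, a secreted inhibitor of papain-like cathepsins that also inhibits legumain. It had a ratio of 0.773 and a log2 fold change of −0.37 (p = 0.0362) in the authors' deposited table. The inhibitor was thus lower where LGMN was higher, and their log2 fold changes lay 0.58 apart in the authors' deposited table. Both genes were chosen from this comparison, and no error can be attached to that gap.

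**Figure D2:**
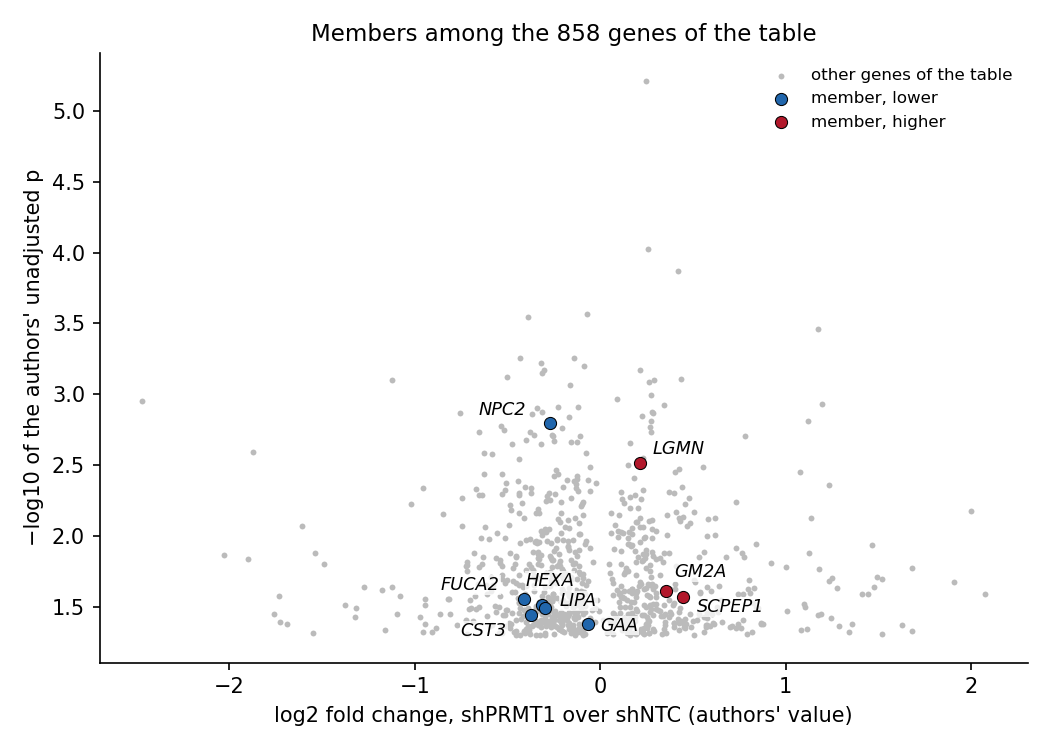
The 858 genes of the authors' deposited table by log2 fold change (shPRMT1 over shNTC) and −log10 of the authors' unadjusted p; the 9 genes are named, blue for lower and red for higher. NPC2 and LGMN have smaller p-values than the rest and lie higher, and the 9 genes lie between −0.41 (FUCA2) and 0.44 (SCPEP1) on the horizontal axis.

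The wider set of soluble lysosomal genes was described with lists by enzyme class, drawn from textbook function. Of 77 genes for hydrolases, cofactors, cystatins and related enzymes, 11 were listed in the authors' deposited table (7 on the lower and 4 on the higher side), which is 14.3% of the list beside 11.2% of the genes tested. How many of the 77 were tested is unknown, and 9 of the 11 are the genes above, so the share is no separate result. The 2 further genes were the protease gene CTSV at 0.48 (p = 0.0353) and the lysosomal nuclease gene PLD3 at −0.30 (p = 0.0369) in the authors' deposited table. Both had an adjusted p of 0.432. CTSV encodes cathepsin V, a cysteine protease close to cathepsin L.

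By class, the authors' deposited table held 3 of 20 glycosidases, all lower (with GAA above 0 if 0.1 is added), and 1 of 9 lipid hydrolases, LIPA. It held 3 of 21 proteases and peptidases, all higher, at log2 fold changes from 0.21 (LGMN) to 0.48 (CTSV). Beside these class counts, 11.2% of the genes tested were listed, and 58.4% of all listed genes were lower and 41.6% higher. Of the listed glycosidases, proteases and peptidases, only CTSV is not among the 9 genes chosen from this comparison. The split of directions by class was not tested. The authors' deposited table held 1 of 9 cystatins and stefins, CST3, and 0 of 8 sulfatases. For a gene that is missing there, a p of at least 0.05 and no test at all cannot be told apart. The median log2 fold change of the 11 genes was −0.27, against −0.12 over the authors' deposited table.

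**Figure D3:**
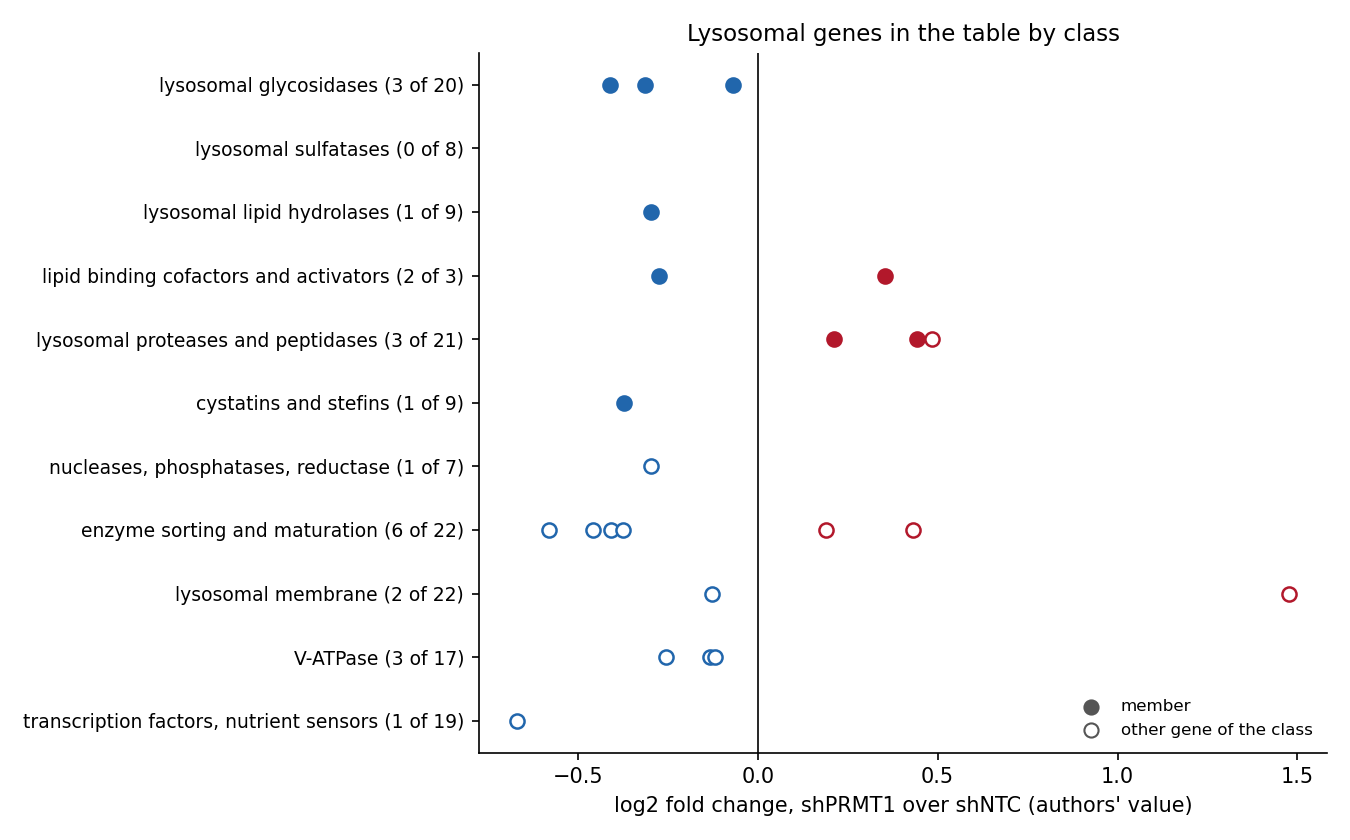
Log2 fold change (shPRMT1 over shNTC) of the lysosomal genes in the authors' deposited table, by class, with the number listed of the number in each class; filled points are the 9 genes and open points other genes, blue lower and red higher. The 3 glycosidases lie below 0 and the 3 proteases and peptidases above it, while the sorting genes lie on both sides. Of these glycosidases, proteases and peptidases, only CTSV is not among the 9 genes.

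Genes that deliver these enzymes were also on both sides. Of 22 genes for sorting and maturation, the authors' deposited table listed 6, of which 4 were lower and 2 higher. That is 27.3% of the list beside 11.2% of the genes tested, and 58.4% of all listed genes were lower. How many of the 22 were tested is unknown. GNPTAB, which encodes the catalytic subunits of the enzyme that starts the mannose 6-phosphate tag, was at 0.43, while GNPTG, its gamma subunit, was at −0.37 in the authors' deposited table. Of the receptors, IGF2R, which carries tagged enzymes, was at 0.19 and SORT1, a receptor independent of the tag, at −0.46 in the authors' deposited table. SCARB2, the receptor that carries glucocerebrosidase, was at −0.58, and SUMF2, a relative of the sulfatase-modifying factor, at −0.41 in the authors' deposited table.

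Among 17 subunits and partners of the V-ATPase, the proton pump that acidifies the lysosome, the authors' deposited table held 3, all lower: ATP6V1D at −0.25, ATP6V1G1 at −0.13 and ATP6AP2 at −0.12, the last being 0.0067 after centring on the median. That is 17.6% of the list beside 11.2% of the genes tested, and 58.4% of all listed genes were lower. Of 22 membrane proteins, OSTM1, a partner of the chloride transporter CLCN7, was at −0.13 and MFSD8 at 1.48 in the authors' deposited table. The adjusted p was 0.364 for OSTM1 and 0.432 for MFSD8. These 2 listed genes are 9.09% of the membrane list, below the 11.2% of the genes tested. Out of 19 transcription factors and nutrient sensors of the lysosome, LAMTOR1, an anchor of mTORC1 signalling on the lysosomal surface, was at −0.67 (p = 0.00469) in the authors' deposited table. LAMTOR1 was the 1 listed gene of its list (5.26%), also below 11.2%. TFEB, TFE3 and MITF were not in the authors' deposited table.

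The cellular pathways that make or share the substrates had few listed genes. B4GALT5, which makes the lactosylceramide from which gangliosides are built, was at 0.28 (p = 0.00133) in the authors' deposited table, the 1 listed gene of 9 in glycosphingolipid synthesis. GBE1, the glycogen branching enzyme, was at −0.32 in the authors' deposited table, the 1 listed gene of 14 in cytosolic glycogen metabolism. Of 10 genes for cholesterol uptake and esterification, LIPA and NPC2 were the 2 listed, and both are among the 9 genes chosen from this comparison. Lysosomal enzymes are abundant in macrophages, and 0 of 10 macrophage and leukocyte markers were in the authors' deposited table. Of 10 fibroblast markers, COL1A2 was listed, at −0.51 in the authors' deposited table. That is 10.0% of the fibroblast list beside 11.2% of the genes tested. All 4 samples are labelled as the MiaPaca-2 line. Summed marker levels per sample could not be formed, so the part of other cells in these values was not tested.

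Transcript length was compared because direction in the authors' deposited table varies with it. Longest transcripts in GENCODE 29 had a median of 2823 nt for the genes listed lower and 4436 nt for those listed higher. Among the 9 genes the order was the other way, with medians of 3034 nt for the 6 lower and 2115 nt for the 3 higher ones. The longest transcript of HEXA was 6909 nt, and those of the other lower genes ran from 1436 nt (NPC2) to 3626 nt (GAA). SCPEP1 had 1942 nt, LGMN 2115 nt and GM2A 3896 nt, so the lengths of both groups overlap. These medians are descriptions, and the difference between the 9 genes and the table was not tested.

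**Figure D4:**
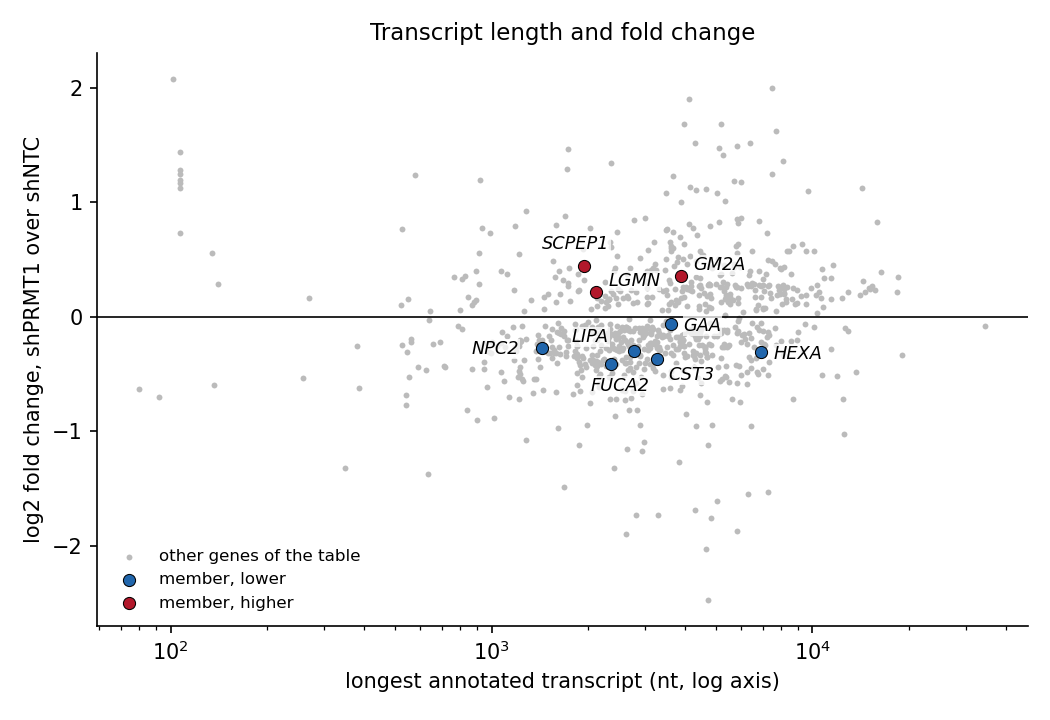
Longest annotated transcript (GENCODE 29, log axis) and log2 fold change (shPRMT1 over shNTC) of the 846 matched genes of the authors' deposited table; the 9 genes are named, blue for lower and red for higher. SCPEP1 (1942 nt) and LGMN (2115 nt) are higher with short transcripts, and HEXA (6909 nt) is lower with the longest of the 9.

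Some of the 9 genes share exonic bases with a neighbour, and whether the authors' counting used strand is not given in the sources used here. HEXA overlaps the antisense gene AC009690.2 over 1273 nt (10.1% of its exonic bases) and HEXA-AS1 over 364 nt, and on its own strand AC009690.1 over 617 nt. FUCA2 overlaps the pseudogene VDAC1P8 over 381 nt (13.6%) and AL031320.2 over 303 nt (10.8%), NPC2 overlaps ISCA2 over 103 nt and, on its own strand, MIR4709 over 72 nt, and LIPA overlaps AL353751.1 over 135 nt and IFIT2 over 65 nt. These overlapping genes were not in the authors' deposited table. GAA, LGMN, GM2A, SCPEP1 and CST3 shared no exonic base with another annotated gene.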

How the data were processed

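Total RNA of 2 shPRMT1 and 2 shNTC samples was sequenced. The submitters' processing notes name the build hg19 and, in no stated role or order, edgeR 3.36.0, StringTie 2.2.1, deepTools, Trim Galore 0.6.7 and HISAT2 2.2.1. Per gene, the authors deposited a linear fold change (ratio), the same on the log2 scale, and p-values before and after adjustment. For the test, normalization and filter behind them, nothing is given in the sources used here. The design allowed for counts per sample or for a comparison table, and the latter applied, so no test of samples was run.

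Benjamini-Hochberg adjusted p, p and rank gave 7640 genes tested, which all 52 complete runs of equal adjusted p returned within 0.01. This step was tested on simulated data. The members, the 16 other lists and the naming rule (all 9 members, listed genes of each list, PRMT1) were chosen with earlier results of these data known. Genes were matched by symbol and older symbol, and 1 gene is not reported here. Promoter windows came from RefSeq (GRCh38.p14), transcripts and overlaps from GENCODE 29 on another build than the authors', matched by identifier for 846 of 858 genes. The search motifs were chosen after the values were seen. Python 3.11.15, numpy 2.4.6, pandas 2.3.3, scipy 1.17.1 and matplotlib 3.10.9 were used.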

Additional observations from a re-analysis of the deposited data

How the results depend on the processing

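Without values of single samples, leaving out a replicate, other normalizations and filters could not be run. No paired analysis was possible because the authors' deposited table gives 1 value per gene for the whole comparison. In the authors' deposited table, 2 of the 9 members passed an unadjusted p under 0.01, 0 an unadjusted p under 0.001, 0 an adjusted p under 0.05, and 0 reached 0.5 or 1 in absolute log2 fold change. The 11 listed soluble lysosomal genes of the authors' deposited table, out of 77, became 2 at an unadjusted p under 0.01. That level was met by 2.5% of the genes tested and by 22.3% of those listed. The count of lower genes was 5 of 9 with 0.1 added to all log2 values, 5 of 9 after centring on the median, 5 of 8 without CST3, and 4 of 6 without GM2A, NPC2 and CST3. Before either shift, 58.4% of all listed genes were lower. Centring leaves as many listed genes below 0 as above it, so 5 of 9 is close to the share over all genes. The share over all genes with 0.1 added was not computed. The members' median log2 fold change from the authors' deposited table, −0.27, was −0.17 without CST3 and −0.15 after centring. Both scalings were applied to single genes after seeing the data: GAA turned to 0.032 with 0.1 added and to 0.057 after centring, ATP6AP2 turned to 0.0067 after centring, and the other 25 of 27 named genes kept their direction under both. In protein-coding genes alone 59.5% of the authors' deposited table was lower, against 58.4%.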

Other observations

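The E-box that GAA and SCPEP1 carry was counted over the wider list of soluble lysosomal genes, a count chosen after the values were seen. RefSeq windows were found for 52 of the 77 genes, and TCACGTGA was in 7 of them (13.5%), against 1.18% of all gene symbols with a window. It was in 2.14% of the lower and 2.76% of the higher genes of the authors' deposited table. The 7 include GAA and SCPEP1, which prompted the count, so the share is not independent of them. The element is known from lysosomal promoters, so a higher share in a list of lysosomal genes is no result of this comparison. GTCACGTGAC was in 4 of the 52 (GAA, GALNS, PLBD2 and PLD3), which is 7.69%, against 0.421% of all gene symbols with a window. Of the 7 genes with TCACGTGA, 3 were in the authors' deposited table: SCPEP1 at 0.44, GAA at −0.07 (0.032 with 0.1 added) and PLD3 at −0.30. The other 4, ARSK, CTSA, GALNS and PLBD2, were not among its genes. Over the authors' deposited table, CACGTG was in 12.1% of the 373 lower and 13.4% of the 254 higher genes with a window; this difference was not tested.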
